A study of Mus musculus with 5 samples.

Results

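The Myc family and its Max partners are described here through 10 genes: Myc, Mycn, Max, Mga, Mxd1, Mxd3, Mxd4, Mxi1, Mnt and Mlx. They were taken as all array probes whose annotated symbol is one of these names, which gave 14 probes for 10 of the 16593 genes named on the array. The cells were mouse embryonic stem cells of the 46C line, in which a green fluorescent protein reporter marks the neural gene Sox1. In the N2B27 48 hr group (n = 3) they had been trypsinized, washed and grown for 48 hr in the serum-free medium N2B27 alone, a state labelled competent to respond to differentiation signals. In the ESC group (n = 2) they had been kept pluripotent in the same medium with LIF, BMP and the compound PD173074, an inhibitor of FGF receptors, at 100 nM, and no feeder cells or serum were used there. All 5 samples thus came from a single reporter line, each was measured on its own single-colour Illumina bead array, and the labels do not say whether replicates were separate cultures, so the p-values cover the spread among these 5 samples, which may be technical.

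Myc proteins are basic helix-loop-helix leucine zipper factors that bind the E-box, a short DNA motif, only as dimers with Max, and they activate genes of ribosome assembly, nucleotide and polyamine synthesis and growth. The Mxd proteins, Mxi1 and Mnt compete for Max and bring the Sin3 corepressor to the same motif, while Mga joins Max in a variant Polycomb complex. Mlx is a Max-like protein that dimerizes with some Mxd proteins and with the nutrient-responsive factors MondoA and ChREBP. In embryonic stem cells Myc and Mycn are known for supporting growth and self-renewal.

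On these arrays the family was mostly at or below background. Neither Myc nor Mycn was detected on 2 or more arrays, nor were Mxd1, Mnt and Mga. Thus 5 of the 10 genes could be tested, against 53.2% of all named genes. Max, the shared partner, was well above background on its bright probe, which read 1.26-fold lower in N2B27 48 hr. This call was kept in 10 of 15 alternative fits, and the dim probe of Max did not pass (log2 change 0.03). Mxd3, Mxd4, Mxi1 and Mlx were dim and did not pass the test. Outside the list of members, Mycl, a further Myc paralog, was bright and was 3.86-fold lower in N2B27 48 hr. Of 49 tested genes known as activated Myc targets, 27 rose and 4 fell (55.1% and 8.16%, against 23.8% and 21.4% of all tested genes). Under median scaling 3 of the 49 rose and 2 fell, against 760 and 1802 of all 8828 tested genes. Targets then rose no more often than all genes. Without ESC replicate 1 the median log2 change of the targets was 0.34, against 0.068 for all tested genes.

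These promoter stretches are shown because the E-box CACGTG, which reads the same on both strands, lies in the promoter window (250 bases before to 50 after a start site, from RefSeq on GRCm38.p6) of Max, Mlx, Mnt and Mxd4. Each runs 5′ to 3′ on the strand of its gene with the E-box in capitals.
Max (chr12:76962234-76962263, minus strand): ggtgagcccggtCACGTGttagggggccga
Mlx (chr11:101087238-101087267, plus strand): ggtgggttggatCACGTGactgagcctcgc
Mnt (chr11:74830789-74830818, plus strand): ccccacccaagcCACGTGtgcgcgcgcggt
Mxd4 (chr5:34187912-34187941, minus strand): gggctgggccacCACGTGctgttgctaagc
The motif begins 3 bases before the start site in Max, 40 in Mlx, 123 in Mnt and 219 in Mxd4. A window was found for 9 of the 10 genes, Myc having no entry, and 4 of the 9 (44.4%) held the motif. Of the 7193 genes tested on the arrays that have a window, 11.8% held it, and of all 27025 genes with a window 8.09% did. A match is a description of these letters and not a site of binding.

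The arrays held 25697 probes, and 42.1% to 45.7% of them were detected in N2B27 48 hr against 45.7% and 47.5% in ESC. Detection means a detection p under 0.05. N2B27 48 hr replicate 1 was the dimmest array, with a mean signal of 187.1 against 235 to 263.7 on the others. All 7 naive stem cell markers fell and all 4 epiblast markers rose, while the 5 general pluripotency genes split, with rises of Utf1 (log2 change 1.99) and Lin28a and falls of Sox2 (-2.17), Sall4 (-0.57) and Pou5f1 (-0.44). Of 11 fibroblast markers 6 were detected on no array (Col1a1, Col1a2, Col3a1, Col6a1, Postn and Twist2). The summed linear signal of the list was 811 to 1098 in N2B27 48 hr against 264 and 283 in ESC, but its 4 tested genes disagreed. Acta2 and Dcn, undetected in ESC, were at least 18.3-fold and 2.84-fold higher, and Thy1 rose (log2 change 2.30). Fbln2, undetected in N2B27 48 hr, was at least 1.48-fold lower. The part of fibroblasts in the results below was not tested. In neural ectoderm and endoderm lists, 4 of 5 and 5 of 6 markers with a probe were detected on no array, among them Sox1, Pax6, Sox17 and Gata4. In the mesoderm list the same held for 2 of 4. Fewer cells of a type and less RNA per cell cannot be told apart in these bulk samples.

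Levels below are normalized values on the scale of log2(background-corrected intensity + 16), on which the lowest detected value was between 4.59 and 4.75 on each array. Of the 14 member probes, 5 were detected on no array, 3 on 1 array and 6 on at least 2, which is 42.9% against 49.1% of all probes. By their best probe 5 of 10 member genes met that minimum of 2 arrays, against 53.2% of all named genes. On all 5 arrays 1 of 10 member genes was detected, against 6759 of 16593 named genes. Of the member probes 2 of 14 were detected on all 5, against 9428 of 25697 probes. The family was thus close to the whole array at the minimum of 2 arrays and lower at 5.

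**Figure D1:**
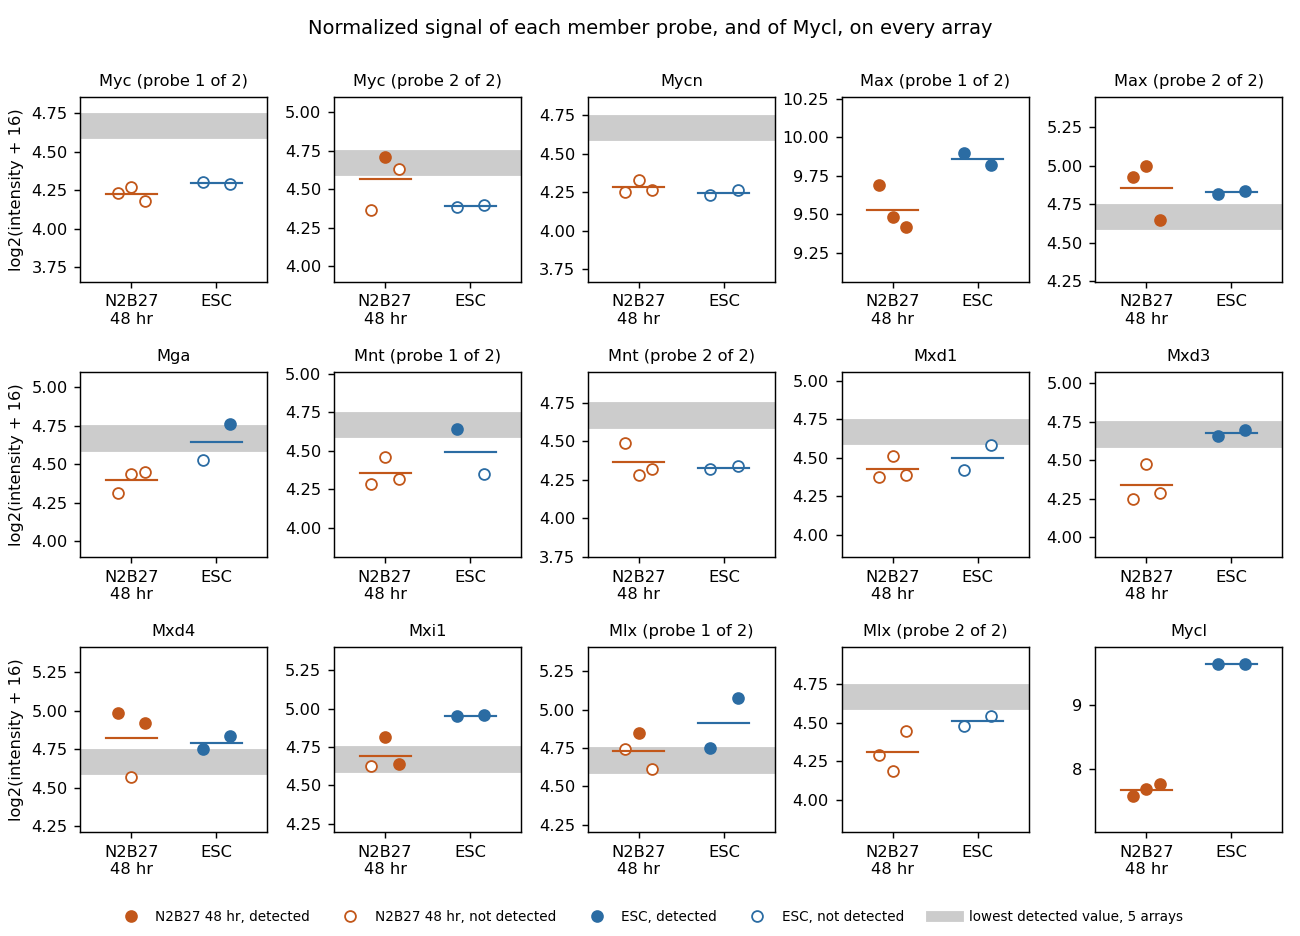
Normalized signal of each member probe and of the Mycl probe on each array, N2B27 48 hr on the left of each panel and ESC on the right. Group means are lines, and each panel has a vertical scale of its own. The intensity named on the axis, log2(intensity + 16), is background-corrected. Filled points were detected, open points were not, and the grey band spans the lowest detected values of the 5 arrays; only 1 of the Max probes and the Mycl probe lie far above it.

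Myc, the prototype of the family, has 2 probes. On the first the level was 4.23, 4.27 and 4.18 in N2B27 48 hr and 4.30 and 4.29 in ESC, and no array detected it. The N2B27 48 hr values were the lower ones, but all were at background. On the second the level was 4.37, 4.71 and 4.63 in N2B27 48 hr and 4.39 and 4.40 in ESC. That probe was detected on N2B27 48 hr replicate 2 alone (a detection p of 0.0376), with replicate 3 just outside the limit (0.0526), and on 0 of 2 ESC arrays. Replicate 1 of N2B27 48 hr was level with ESC and the other replicates were higher, so the groups overlapped.

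Mycn, the paralog of embryonic and neural progenitors, was at 4.25, 4.33 and 4.27 in N2B27 48 hr and 4.23 and 4.27 in ESC. Its detection p was never under 0.509, and the groups overlapped. Neither paralog could therefore be compared between the groups, nor with the other. A probe that is not well above background gives only an upper limit to the signal it sees and does not show that the gene is silent.

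Mycl, which encodes L-Myc, is not among the listed members but is a further Myc paralog. Its single probe was detected on all 5 arrays, at 7.58, 7.69 and 7.77 in N2B27 48 hr and 9.63 and 9.62 in ESC. All N2B27 48 hr arrays lay below both ESC arrays, with a gap far wider than the spread within either group. The log2 change was -1.95 ± 0.105 (SE, adjusted p = 1.35e-07), a 3.86-fold lower signal, and it was negative and past the test in all 15 alternatives (-2.15 to -1.69).

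Max, the obligate partner of every Myc protein, also has 2 probes. The bright probe read 9.69, 9.48 and 9.41 in N2B27 48 hr and 9.90 and 9.82 in ESC. The groups did not overlap, although N2B27 48 hr replicate 1 came near the lower ESC array. The mean was 9.53 ± 0.145 in N2B27 48 hr and 9.86 ± 0.0587 in ESC (SD, n = 3 and 2), a log2 change of -0.33 ± 0.104 (SE, adjusted p = 0.0244) or 1.26-fold. Of all tested genes 21.4% fell, so a fall was common. Leaving out ESC replicate 1 (-0.29, adjusted p = 0.189), ESC replicate 2 (-0.37, 0.0958) or N2B27 48 hr replicate 2 (-0.31, 0.0798) ended the call, and so did median scaling (-0.51, 0.166) and a fit without the variance trend (0.0674). The dim probe read 4.93, 4.996 and 4.65 in N2B27 48 hr and 4.82 and 4.84 in ESC, with overlapping groups and a change of 0.03 ± 0.151 (adjusted p = 0.892). Only the bright probe of Max passed the test.

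Among the antagonists, Mxd3, Mxd4 and Mxi1 were tested and none of the 3 passed, while Mxd1, Mnt and Mga were not tested. Mxd3, a Mxd protein of proliferating cells in S phase, read 4.25, 4.48 and 4.29 in N2B27 48 hr, where no array detected it, and 4.65 and 4.69 in ESC, where both did. The groups did not overlap, but the ESC values sat at the detection limit. With no detection in N2B27 48 hr the level there has only an upper limit, which reached the ESC mean, so no fold is given. The mean was 4.34 ± 0.123 in N2B27 48 hr and 4.67 ± 0.0277 in ESC (SD, n = 3 and 2), Mxd3 did not pass the test (adjusted p = 0.0649), and it passed in 5 of 12 alternatives. Mxi1, also known as Mxd2, read 4.63, 4.82 and 4.64 in N2B27 48 hr and 4.95 and 4.96 in ESC. It was detected on 2 of 3 and on 2 of 2 arrays, its groups did not overlap, and the change was -0.26 ± 0.138 (adjusted p = 0.158).

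Mxd4, an antagonist linked to differentiation and quiescence, read 4.98, 4.57 and 4.92 in N2B27 48 hr and 4.75 and 4.83 in ESC. N2B27 48 hr replicate 2 lay below both ESC arrays and the other replicates above them, and the change was 0.03 ± 0.159 (adjusted p = 0.887), with a sign that turned in 5 alternatives, median scaling among them. Mxd1, the founding member of the Mxd group, was detected on no array and read 4.37 to 4.51 in N2B27 48 hr against 4.42 and 4.58 in ESC.

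Mnt, an antagonist found in most cells, was detected on 1 array by 1 of its 2 probes, in ESC replicate 1, at a detection p of 0.0338. By that probe it read 4.28, 4.46 and 4.32 in N2B27 48 hr and 4.64 and 4.35 in ESC, and by the other 4.28 to 4.49 against 4.32 and 4.34. The groups overlapped on both. Mga, the large scaffold protein, read 4.31, 4.44 and 4.45 in N2B27 48 hr and 4.53 and 4.76 in ESC, without overlap, but it was detected in ESC replicate 2 alone, at a detection p of 0.0138. The probes of Mxd1, Mnt and Mga did not reach the minimum of 2 arrays and were not tested.

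Mlx has 2 probes. The brighter read 4.74, 4.85 and 4.61 in N2B27 48 hr and 4.75 and 5.07 in ESC, was detected on 1 of 3 and 2 of 2 arrays, and overlapped between groups, with a log2 change of -0.18 ± 0.154 (adjusted p = 0.389). The other was detected on no array, at 4.29, 4.19 and 4.45 in N2B27 48 hr and 4.48 and 4.55 in ESC, without overlap. Of the partners of Mlx, Mlxip, which encodes MondoA, had 4 probes that were not tested. Mlxipl, which encodes the glucose-responsive factor ChREBP, read 5.65, 5.16 and 4.84 in N2B27 48 hr and 6.50 and 6.52 in ESC. All N2B27 48 hr arrays were lower, the change was -1.29 ± 0.213 (adjusted p = 0.000594), and the spread was wide in N2B27 48 hr (SD 0.406) and narrow in ESC (SD 0.0125).

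Set against the whole array, 45.2% of the 8828 tested genes changed, 23.8% rising and 21.4% falling, with a median log2 change of 0.049. Of the 5 tested members 0 rose and 1 fell in limma, and at an unadjusted p under 0.05 the counts were 0 and 2. In 3 of the 5 the groups of arrays did not overlap, against 65.0% of all tested genes. Scaling each array to its median moved the median of all genes to -0.106, and 760 genes then rose and 1802 fell, against 2100 and 1889. Under that scaling 0 members rose and 0 fell, and Mycl remained lower (-2.15).

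**Figure D2:**
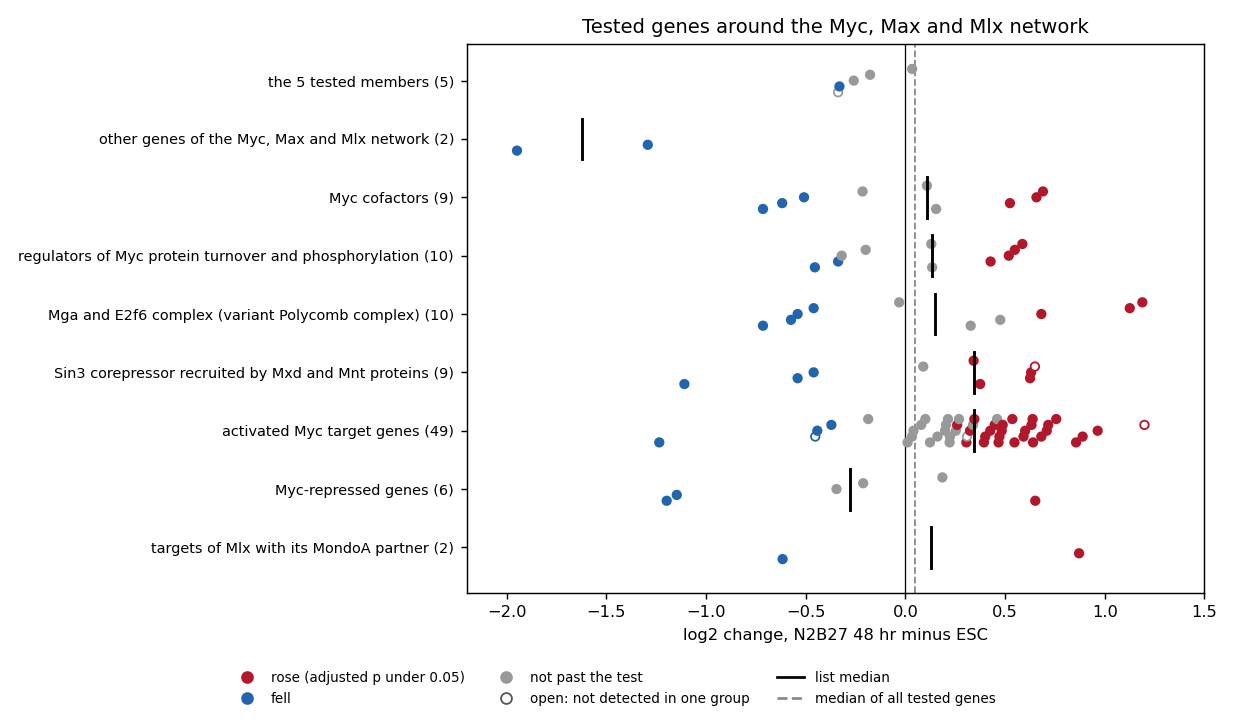
Log2 change, N2B27 48 hr minus ESC, of every tested gene in each list (number of genes in parentheses), coloured by its call (open where a group had no detection, so that the change is not an exact value), with a black bar at the median of each list other than the members and a dashed line at the median of all tested genes (0.049). The 4 tested members detected in both groups lie between -0.33 and 0.03, Mycl is the leftmost point at -1.95, and most activated Myc targets lie right of the dashed line.

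Cofactors of Myc went both ways. Among 9 tested there were 3 rises and 3 falls (33.3% each, against 23.8% and 21.4% of all tested genes), and the median was 0.11. The shares of this and the other short lists were not tested against those of all genes. The paired AAA ATPase genes Ruvbl1 and Ruvbl2, which serve chromatin remodelling and acetyltransferase complexes, rose by 0.69 ± 0.088 and 0.52 ± 0.0921, and all 3 probes of Ruvbl1 rose. Kat5, the Tip60 acetyltransferase, rose by 0.66 ± 0.134 on its brighter probe, while the other read -0.01 (adjusted p = 0.965). The histone methyltransferase adaptor Wdr5 changed by -0.71 ± 0.126 and the remodelling ATPase Ep400 by -0.62 ± 0.104. Zbtb17, which encodes the Myc partner Miz1, changed by -0.51 ± 0.117, a call lost without either ESC replicate (adjusted p = 0.0521 in both fits). Under median scaling 0 cofactors rose and 3 fell, with a median of -0.12.

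Regulators of Myc protein turnover and phosphorylation also split. Of 10 tested, 4 rose and 2 fell (40.0% and 20.0%, against 23.8% and 21.4% of all tested genes), with a median of 0.13. Skp2, an F-box gene, rose on all 3 probes (0.52 ± 0.123 on the brightest). The phosphatase subunit gene Ppp2r5a rose by 0.59 ± 0.119, and the ubiquitin ligase genes Trim32 and Fbxl14 by 0.55 ± 0.136 and 0.43 ± 0.111. A dim second probe of Trim32 did not pass (0.08, adjusted p = 0.715), and that of Fbxl14 was detected on no array. The deubiquitinase gene Usp7 fell by 0.45 on the log2 scale and the mitotic kinase gene Aurka by 0.34. Fbxw7, the F-box receptor that marks phosphorylated Myc for degradation, read -0.32 ± 0.140 and did not pass (adjusted p = 0.0879).

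Several of these calls ended with an ESC array left out, where fewer genes were called over the whole array as well. Without ESC replicate 1 these were Skp2 and Aurka, and the list median was 0.28, against 0.068 for all tested genes. Without ESC replicate 2 they were Trim32, Fbxl14, Usp7 and Aurka, with a median of -0.017, against 0.064. With N2B27 48 hr replicate 3 left out, 5 rose and 3 fell, against 2230 and 2007 of all tested genes. Under median scaling 0 rose and 1 fell, against 760 and 1802, with a median of -0.11. Cyclic loess gave 3 and 3, against 1761 and 2224.

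Partners of Mga in its variant Polycomb complex moved in both directions, with 3 of 10 rising and 4 falling (median 0.15). Over the whole array 23.8% of tested genes rose and 21.4% fell (median 0.049). Tfdp1, the dimer partner of E2F proteins, read 9.91, 9.74 and 9.85 in N2B27 48 hr and 8.71 and 8.58 in ESC. E2f6, the repressive E2F of this complex, read 9.17, 9.28 and 9.39 in N2B27 48 hr and 8.09 and 8.21 in ESC. Both were higher on every N2B27 48 hr array, by 1.19 ± 0.0976 and 1.13 ± 0.105, and all 3 E2f6 probes rose. The Polycomb RING finger gene Pcgf6, which defines the complex, rose by 0.68 ± 0.0935.

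Lower in the same complex were L3mbtl2, a malignant brain tumour domain protein (-0.57 ± 0.162), the deacetylase genes Hdac2 (-0.54 ± 0.109) and Hdac1 (-0.46 ± 0.112), and Wdr5. L3mbtl2 did not pass with ESC replicate 1 left out (-0.36, adjusted p = 0.225), nor Hdac1 with ESC replicate 2 left out (-0.41, 0.0864). Without N2B27 48 hr replicate 1, 5 rose and 4 fell, against 2104 and 1866 of all tested genes. Under median scaling 2 rose and 3 fell, against 760 and 1802 of all tested genes. Pcgf6 (0.44, adjusted p = 0.253) and Hdac1 (-0.65, 0.0632) then did not pass.

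The Sin3 corepressor, which Mxd and Mnt proteins recruit, had 9 tested genes, of which 5 rose and 3 fell (median 0.34). These were 55.6% and 33.3%, against 23.8% and 21.4% of all tested genes. Sap30, a bridging subunit, read 10.45, 10.44 and 10.21 in N2B27 48 hr and 11.45 and 11.50 in ESC, a change of -1.11 ± 0.094. Hdac1 and Hdac2, shared with the Mga complex, were the other genes that fell. Rbbp7, a histone-binding subunit, rose by 0.63 ± 0.104 on its brightest probe and on 2 others, while a dim probe did not pass (-0.13, adjusted p = 0.52). Ing2, which reads methylated histone H3, rose by 0.63 ± 0.141. Arid4b was detected on 0 ESC arrays and was at least 1.47-fold higher (adjusted p = 0.0301), while its other probe was detected on no array.

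The rise of Arid4b ended with ESC replicate 1 or 2 left out (adjusted p = 0.153 and 0.143), or N2B27 48 hr replicate 1 or 2 (0.0586 and 0.0793). Sin3a, the scaffold itself, read 0.09 ± 0.149 and did not pass (adjusted p = 0.671). Without an ESC array fewer of the Sin3 genes were called, as over the whole array. The list median was 0.36 without ESC replicate 1 and 0.27 without ESC replicate 2, against 0.068 and 0.064 for all tested genes. The counts were 3 rising and 3 falling without N2B27 48 hr replicate 1 or 2. Median scaling gave 1 and 2, against 760 and 1802 of all tested genes, and cyclic loess 3 and 3, against 1761 and 2224. Rbbp7 (0.44, adjusted p = 0.251), Ing2 (0.40, 0.291) and Hdac1 (-0.65, 0.0632) did not pass under median scaling.

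Activated Myc targets, a list of 61 genes mostly of nucleolar and growth functions, had 56 genes with a probe and 49 tested. Rises numbered 27 (55.1%, against 23.8% of all tested genes), falls 4 (8.16%, against 21.4%) and genes not past the test 18. The median log2 change was 0.35, against 0.049 for all tested genes, with a range of 0.16 to 0.42 across alternatives. The groups of arrays did not overlap in 37 of 49 (75.5%, against 65.0% of all tested genes). Under median scaling 3 rose and 2 fell, against 760 and 1802 of all 8828 tested genes. Targets then rose no more often than all genes and fell less often, with a median of 0.16 against -0.106 for all genes. Without ESC replicate 1 the median was 0.34, against 0.068 for all tested genes, and without ESC replicate 2 it was 0.41, against 0.064.

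**Figure D3:**
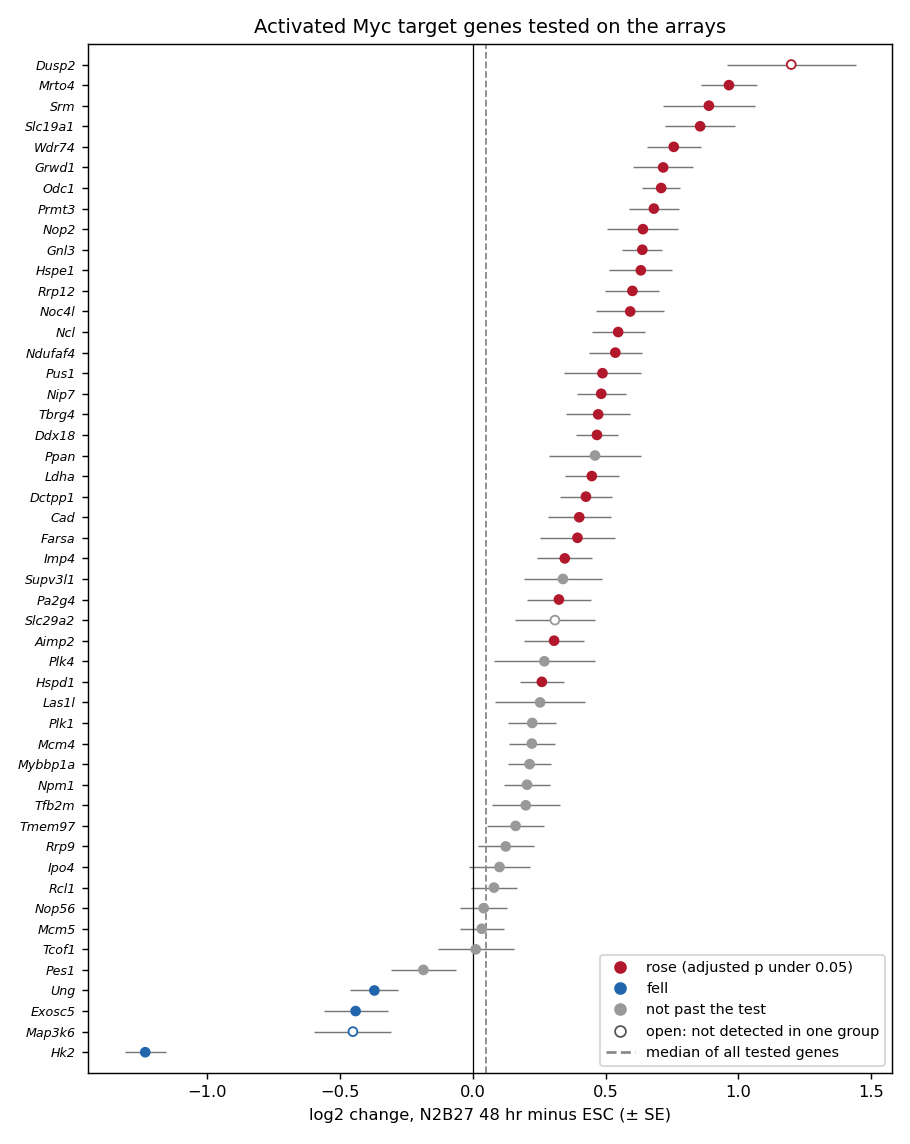
Log2 change ± SE, N2B27 48 hr minus ESC, of the 49 tested activated Myc targets in order of size, coloured by call, with a dashed line at the median of all tested genes. Open points, Dusp2, Slc29a2 and Map3k6, were not detected in one group, so their place in the order is not settled; 27 genes rose, and Hk2 fell by 1.23.

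Among the rises were genes of ribosome assembly. Mrto4, a factor of large ribosomal subunit assembly, read 9.65, 9.39 and 9.47 in N2B27 48 hr and 8.56 and 8.52 in ESC. It was higher on every N2B27 48 hr array (0.96 ± 0.105, adjusted p = 3.08e-05). Wdr74, of the same process, rose by 0.76 ± 0.101, a call lost under median scaling (0.52, adjusted p = 0.165). Further nucleolar genes that rose, named after their values were seen, were Grwd1 (0.72), Nop2 (0.64), Gnl3 (0.64), Rrp12 (0.60), Noc4l (0.59), Ncl (0.55), Nip7 (0.48) and Ddx18 (0.47). Others of the kind did not pass, such as Npm1 (0.20, adjusted p = 0.0793), Nop56 (0.04), Tcof1 (0.01) and Pes1 (-0.19).

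Genes of polyamine synthesis and folate uptake were also among the rises. Srm, which encodes spermidine synthase, read 11.30, 11.21 and 10.59 in N2B27 48 hr and 10.07 and 10.22 in ESC. All 3 N2B27 48 hr arrays were above ESC, with replicate 3 the closest, and all 3 Srm probes rose (0.89 ± 0.173 on the brightest). Odc1, ornithine decarboxylase and a classical Myc target named after its value was seen, read 12.21, 12.26 and 12.30 in N2B27 48 hr and 11.55 on both ESC arrays (0.71 ± 0.0707). The folate carrier gene Slc19a1 rose by 0.86 ± 0.132, a call lost under median scaling (0.62, adjusted p = 0.0859). Dusp2, a dual-specificity phosphatase of the MAP kinase pathway, had signal above background on 3 of 3 N2B27 48 hr arrays and 0 of 2 ESC arrays and was at least 1.86-fold higher. Its other probe was detected on 2 of 3 N2B27 48 hr arrays and 0 of 2 ESC arrays and also rose (adjusted p = 0.0345), but no fold is given for it.

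Against the direction of most targets, Hk2, which encodes hexokinase 2, read 11.14, 11.05 and 11.00 in N2B27 48 hr and 12.33 and 12.27 in ESC, a change of -1.23 ± 0.0772 (adjusted p = 4.43e-07). Another glycolytic target, the lactate dehydrogenase gene Ldha, rose by 0.45 ± 0.101. The stress kinase gene Map3k6 was at least 1.17-fold lower, its probe being undetected in N2B27 48 hr, and its call was lost without N2B27 48 hr replicate 2 or 3 (adjusted p = 0.0569 and 0.0729). The exosome subunit gene Exosc5 and the uracil-DNA glycosylase gene Ung were the other falls (-0.44 and -0.37).

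Ldha and Nop2 show the E-box in targets that rose, chosen after their values were seen. The motif begins 145 and 48 bases before the Ldha start and 60 before that of Nop2, and it is in capitals.
Ldha, far (chr7:46845647-46845676, plus strand): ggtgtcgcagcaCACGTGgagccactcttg
Ldha, near (chr7:46845744-46845773, plus strand): cggcccagcctaCACGTGggttcccgcacg
Nop2 (chr6:125131811-125131840, plus strand): gtgtccctggatCACGTGtgttccggtgcc
Of the target genes with a window, tested on the arrays or not, 16 of 56 held the motif (28.6%). By call, among tested targets with a window, it was in 8 of 25 that rose (32.0%), 1 of 4 that fell (25.0%) and 3 of 15 that did not pass (20.0%). Among all tested genes with a window the shares were 13.1% of 1697 that rose, 12.9% of 1524 that fell and 10.8% of 3972 that did not pass, so over the whole array the shares among rises and falls were close.

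Genes known to be repressed by Myc were few. Of 6 tested 1 rose and 2 fell (median -0.28), or 16.7% and 33.3%, against 23.8% and 21.4% of all tested genes. Under median scaling 0 rose and 3 fell. The cell cycle inhibitor gene Cdkn1a read 7.56, 7.60 and 8.04 in N2B27 48 hr and 8.90 and 8.86 in ESC, and all 3 of its probes fell (-1.15 ± 0.147 on the brightest). Ndrg1, a stress and differentiation gene, changed by -1.20 ± 0.149, and its dim second probe was at least 1.34-fold lower. The related inhibitor gene Cdkn1c rose by 0.65 ± 0.160, a call that ended when ESC replicate 1 was left out (adjusted p = 0.0965) and under median scaling (0.271).

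Both genes listed here as targets of Mlx with MondoA changed, as did 45.2% of all tested genes, and in opposite directions. Arrdc4, an arrestin-domain gene, read 10.81, 10.79 and 10.14 in N2B27 48 hr and 9.71 on both ESC arrays, a rise of 0.87 ± 0.171. Txnip, its relative and an inhibitor of glucose uptake, read 8.28, 8.15 and 7.62 in N2B27 48 hr and 8.60 and 8.67 in ESC, a change of -0.62 ± 0.171. Leaving out either ESC replicate ended the call of Txnip (adjusted p = 0.0662 without replicate 1 and 0.102 without replicate 2). In both genes N2B27 48 hr replicate 3 had the lowest level of its group.

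The genes whose levels ran most like those of Max and of Mycl were found by the distance between profiles over the 5 arrays, each centred on its own mean, among 6743 genes detected on all arrays. The nearest to Max were Ubtf, Rpl7l1 and Bloc1s1 (distances of 0.0402, 0.0485 and 0.0577 in log2 units), with changes of -0.35, -0.30 and -0.35. Nearest to Mycl were Dusp16, Smim14 and Tmem51 (0.0783, 0.132 and 0.144), with changes of -1.98, -2.03 and -1.91. With 5 arrays in 2 groups such likeness rests mainly on the size of the group difference. No such genes are given for Myc and Mycn, whose values were at background.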

How the data were processed

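Per the file headers, each probe has a deposited intensity (the mean bead signal, linear, not scaled across arrays) and a deposited detection p-value. The submitters' processing notes name BeadStudio with no version. The authors' deposited table of normalized intensity values served as an alternative. With limma 3.58.1 in R 4.3.3, background was corrected by normexp with control values inferred from detection p (nec), an offset of 16 was added, log2 was taken and arrays were quantile normalized. Probes with detection p under 0.05 on at least 2 of 5 arrays (12605 of 25697) entered 1 fit of N2B27 48 hr minus ESC (lmFit, eBayes with trend, two-sided, Benjamini-Hochberg over all probes, threshold 0.05). The number of arrays limits precision (median SE 0.145). Changes are on the log2(value + 16) scale and understate dim genes. A gene was represented by its brightest tested probe; symbols came from the platform annotation, updated through RefSeq.

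A fold is written as at least N-fold where a group lacks detection, against the higher of the probe's value and the lowest detected value on each array; no fold is given where this limit passes the other group's mean. Members, lists and naming rules were chosen with earlier results of these data known. The naming rule took all members, up to 6 called genes per list (largest changes), up to 2 more against the majority, and nearest profiles. Profiles are given for Max and Mycl instead of Myc and Mycn, a choice made after values were seen, and the planned test of the Myc change against the Mycn change was not run, since neither gene was detected. The fit was tested on simulated data. Figures were drawn with matplotlib 3.10.9.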

Additional observations from a re-analysis of the deposited data

How the results depend on the processing

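No member rose in any of the 15 alternatives, which changed the background correction, the offset (50 or 1), the scaling, the detection filter, the arrays used, the replicate block or the variance trend. The count of members that fell, 1, became 2 with no background correction, with cyclic loess, with the authors' own normalization and with no detection filter, and 0 under median scaling and with no variance trend; leaving out an array gave 0 to 1. Activated Myc targets that rose, 27, were 3 under median scaling and 17 to 30 with an array left out, and those that fell, 4, were 2 under median scaling and 1 to 4 with an array left out. The change of Mxd4, which passed the test in no alternative, turned to -0.0427 under median scaling and -0.0135 with the replicate block, and ran from -0.0455 to 0.161 with an array left out. The cause was not tested. Over all genes, 760 rose under median scaling, and 1332 rose and 1077 fell without ESC replicate 1 and 1273 and 1065 without ESC replicate 2, against 2100 and 1889. Sin3 complex genes that rose, 5, were 3 with no detection filter or no variance trend, and turnover genes that fell, 2, were 1 with no variance trend. Mycl and Max kept their direction in all 15. Without an ESC array, the remaining ESC array is assumed to vary like N2B27 48 hr, and a gene detected in ESC alone cannot enter.

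Replicate numbers 1 and 2 occur in both groups, but the labels do not say that they mark a shared culture, so they were not taken as pairs. Deviations of same-numbered samples from their group means had correlations of -0.085 and -0.0275 over tested probes. With 2 ESC arrays the ESC deviations mirror each other, so these correlations cannot settle pairing. With the replicate block, 0 members rose and 1 fell, and 31 targets rose and 3 fell. As replicate 3 occurs in N2B27 48 hr alone, this fit gave the same changes as leaving that array out (Max -0.273, Mycl -1.99). These alternatives are therefore not separate checks of the size of a change. With no detection filter the untested probes of Myc changed by -0.07 and 0.18 (adjusted p = 0.361 and 0.377) and that of Mycn by 0.03 (0.725). These values are of signals at background. No change of Myc or Mycn has a value under the other alternatives. Dim signal limits every member other than Max: on no array did the signal of these members exceed 5.07, and the lowest detected values were 4.59 to 4.75.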
